A study of Mus musculus with 30 samples.

Results

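The sclera of the mouse at 8 weeks of age was compared with that at 3 weeks, over the 6 arrays of each age among the 30 arrays of the series. Both ages were Balb/cJ mice, an albino inbred strain, with no treatment named, and each array held the RNA of 1 whole sclera from 1 mouse. The remaining arrays came from mice of 1, 2 and 6 weeks. Genes were followed through the 21789 transcript clusters of the array that carried exactly 1 gene symbol, out of 35556 in all. A transcript cluster is the set of probes on the Mouse Gene 1.0 ST array that reads 1 transcription unit. Where a gene had several such clusters, the brightest over all arrays stood for it, which left 19938 genes. The mice are described only as members of the same family. The p-values rest on the spread between animals within an age, pooled over the 30 arrays of all 5 ages. Of these, week 2 replicate 4 equalled the mean of its age, for example at 10.81 for Acta2 and 12.23 for Col1a1. It counted as an array but added no spread for such genes, so the p-values can be too small.

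The sclera is the white outer coat of the eye, made by few fibroblasts that lay down lamellae of collagen with proteoglycans and some elastic fibre. Between weaning age and young adulthood the mouse eye goes on growing while this matrix is deposited and remodelled. The coat is thinly supplied with vessels, and the extraocular muscles insert into it. Whole sclera also borders the choroid, the retina, the cornea and the conjunctiva, so RNA of those tissues can be present in a sample. In bulk tissue of this kind, fewer cells of a type and less RNA per cell cannot be told apart.

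At week 8, 163 genes were higher and 322 were lower than at week 3, by at least 2-fold and with an adjusted p of at most 0.05 (limma with Benjamini-Hochberg adjustment over all transcript clusters). This was 2.43% of the genes tested, or 0.818% called higher and 1.62% called lower. Of the transcript clusters with 1 symbol, 571 were called, 2.62%, with 223 higher and 348 lower. The largest rises were genes of skeletal muscle, and 14 of the 15 largest were on lists of muscle genes. The falls were smaller in size, with 17 genes lower by at least 4-fold against 45 higher by at least 4-fold. They were led by Angptl7, by glucocorticoid-induced and circadian genes, by elastin and by genes of vessels. The arrays of the 2 ages did not overlap for 391 of the 485 genes called, and for 22.7% of all genes, with all week 8 arrays above in 7.61% and below in 15.1%. Over the whole array 5.12% of the transcript clusters were called, with 10.4% of those that carried several symbols and 8.90% of those with none, which are not followed here.

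**Figure D1:**
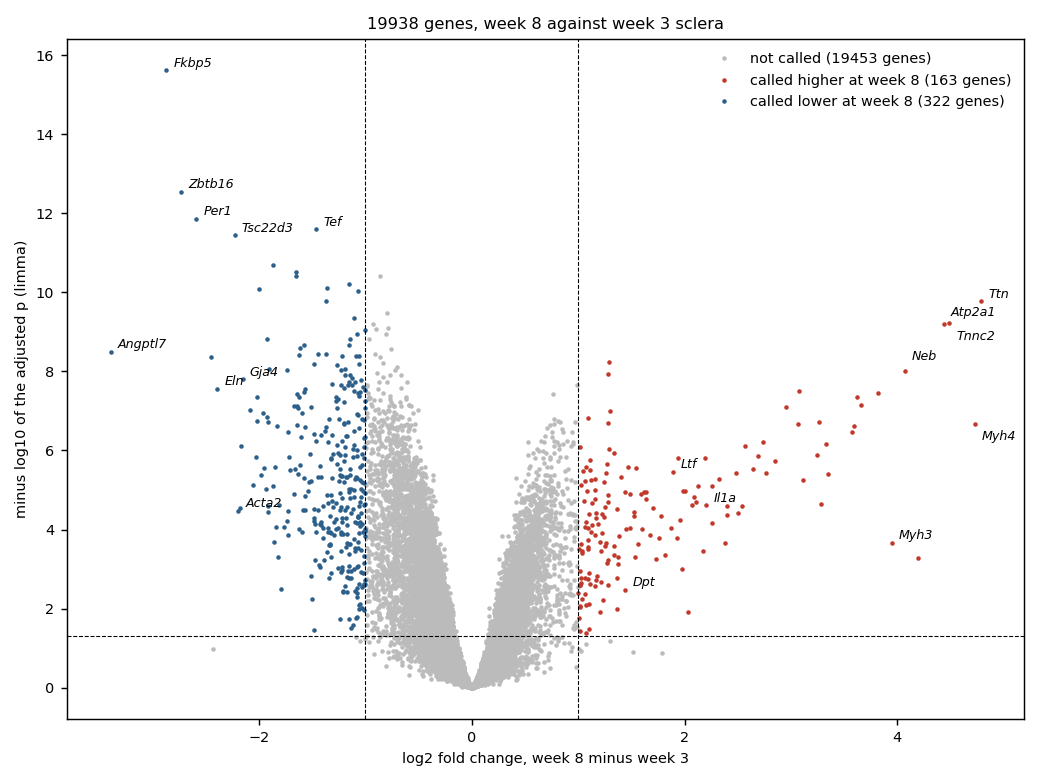
Each point is 1 of 19938 genes, with the log2 fold change of week 8 over week 3 on the horizontal axis and minus log10 of the limma adjusted p on the vertical axis. The 163 genes called higher (red) reach 4.79 for Ttn, the 322 called lower (blue) reach -3.40 for Angptl7, and the dashed lines mark the 2 thresholds.

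The arrays themselves bear on how these values can be read. Array medians ran from 6.15 to 6.27 on the log2 scale at week 8 and from 6.15 to 6.20 at week 3. The interquartile range was 2.33 to 2.67 at week 8, below the 2.71 to 2.80 of every week 3 array. A pair of week 8 arrays stood apart from the rest of their age. Replicate 2 correlated with the mean of the other week 8 arrays at 0.969 and replicate 6 at 0.986, whereas the remaining 4 reached 0.989 to 0.993. At week 3, replicate 3 likewise correlated with the mean of the other arrays of its age at 0.9851, against 0.9895 to 0.9945 for the rest. It had a log2 signal of 8.36 for Krt12, the keratin of the corneal epithelium, while the other 5 arrays had 12.65 to 13.31.

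The markers set for fibrous tissue were detected at both ages, as the label sclera implies. Their mean log2 signal over 10 genes was 9.36 to 10.33 in the week 8 arrays and 9.94 to 10.89 in the week 3 arrays, and none of the 10 was called. Markers of other tissues were present as well. Those of skeletal muscle, 8 genes, averaged 10.08 to 11.57 at week 8 and 6.38 to 8.15 at week 3, and all 8 were called higher. Those of surface epithelium, 5 genes, averaged 10.36 to 11.51 at week 8 and 9.07 to 11.48 at week 3, with none called. Those of rods, 5 genes, averaged 6.25 to 9.23 at week 8 and 7.19 to 8.66 at week 3, again with none called. Endothelial markers, 5 genes, averaged 6.44 to 8.84 at week 8 and 8.65 to 9.92 at week 3, and 3 of them were called lower.

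**Figure D2:**
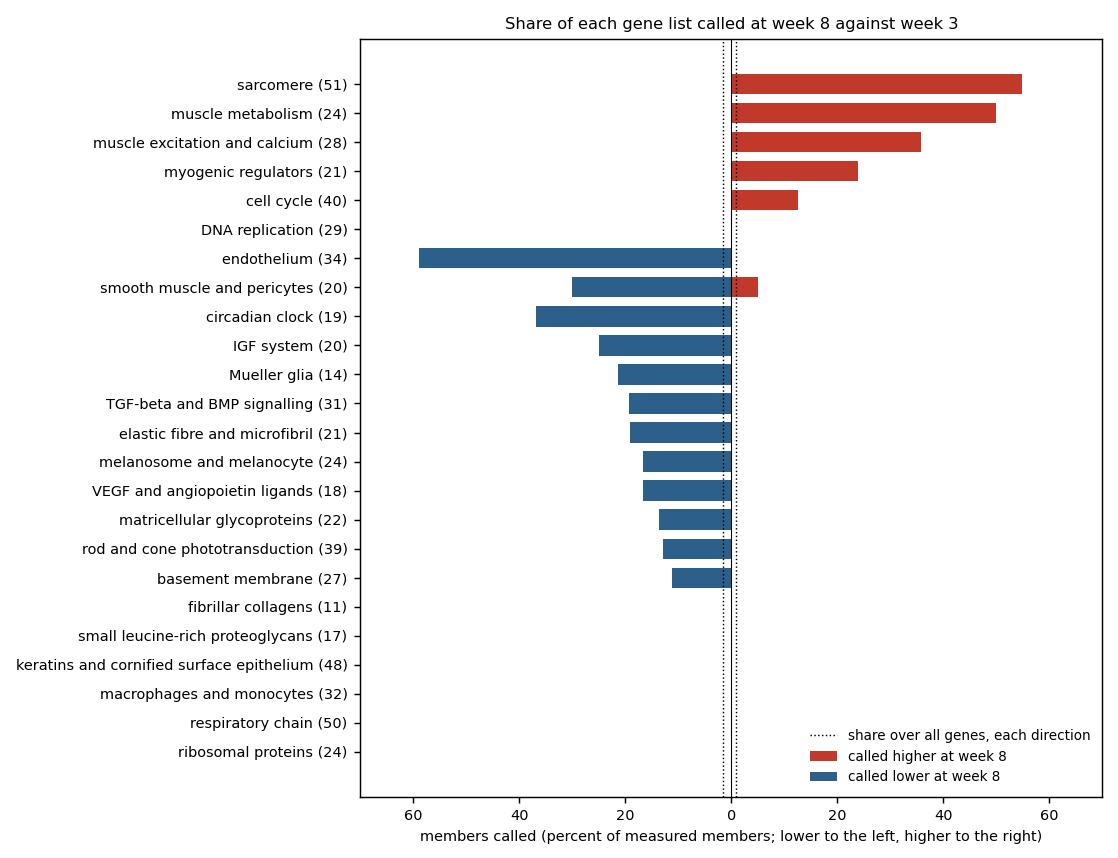
Bars give the percent of the measured members of each gene list (number in brackets) that were called higher (red, to the right) or lower (blue, to the left) at week 8 relative to week 3, and the dotted lines are the shares over all genes, 0.818% higher and 1.62% lower. The sarcomere list reaches 54.9% higher and the endothelium list 58.8% lower, while fibrillar collagens, small leucine-rich proteoglycans and ribosomal proteins have no member called.

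Genes of the sarcomere, the contractile unit of striated muscle, accounted for the largest rises. Of 51 measured members, 28 were called higher and none lower, and the median log2 fold change of the list was 1.16, against -0.04 over all genes. Titin (Ttn), the elastic filament of the sarcomere, had log2 signals of 10.08, 11.04 and 12.04 in the lowest, median and highest week 8 arrays, against 5.25, 6.11 and 7.47 at week 3. It was 27.6-fold higher (4.79 ± 0.36 on the log2 scale, where errors are SE, adjusted p = 1.7e-10). The lowest week 8 array lay above the highest of week 3. The same separation held for Myh4, the heavy chain of the fastest limb fibres, with 10.37, 11.12 and 11.63 at week 8 and 5.38, 6.19 and 7.69 at week 3. Its rise was 26.5-fold (4.73 ± 0.55, adjusted p = 2.16e-07). Tnnc2, the calcium-binding troponin of fast fibres, had 9.68, 10.49 and 11.42 at week 8 and 5.42, 5.97 and 7.15 at week 3, a rise of 22.4-fold (4.49 ± 0.36, adjusted p = 6.04e-10). Nebulin (Neb), the ruler of the thin filament, was 16.8-fold higher and Myl1, a light chain of fast fibres, 12.6-fold higher.

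Several myosin heavy chains rose together. Myh1 and Myh2, of the other fast fibre types, were higher by 14.1-fold and 12.1-fold. Myh3, the embryonic heavy chain, had 7.05, 9.05 and 10.23 at week 8 and 2.39, 5.36 and 7.02 at week 3. The ages nearly met, and its rise of 15.4-fold carried an SE of 0.78 on the log2 scale (adjusted p = 0.000215). Skeletal actin (Acta1), the thin filament of striated muscle, had 11.01, 11.67 and 12.21 at week 8 and 8.13, 8.65 and 9.53 at week 3, which was 7.73-fold higher (adjusted p = 7.98e-08).

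The 23 members that were not called included genes of slow and cardiac fibres, a contrast chosen after the values were seen. Among the troponins of fast fibres, Tnnt3 was 8.43-fold higher (3.07 ± 0.32, adjusted p = 3.17e-08) and Tnni2 6.68-fold higher (2.74 ± 0.34, adjusted p = 6.2e-07). Their slow-fibre counterparts had log2 fold changes of 0.32 ± 0.28 (Tnnt1, adjusted p = 0.374), 0.38 ± 0.33 (Tnni1, adjusted p = 0.356) and 0.41 ± 0.47 (Tnnc1, adjusted p = 0.499). Myh7, the slow heavy chain, had 0.60 ± 0.29 (adjusted p = 0.0962). Myh13, the heavy chain found in extraocular and laryngeal muscle, had 4.69, 5.20 and 6.17 at week 8 and 4.28, 4.67 and 5.84 at week 3 (0.41 ± 0.35, adjusted p = 0.351). The ages overlapped for each of these 5 genes, and the difference between fast and slow isoforms was not itself tested.

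Excitation and calcium handling showed the same direction, with 10 of 28 members higher and none lower. Atp2a1, the calcium pump of the sarcoplasmic reticulum in fast fibres, had 11.40, 12.27 and 12.89 at week 8 and 7.20, 7.71 and 8.68 at week 3. It was 21.6-fold higher (4.44 ± 0.36, adjusted p = 6.17e-10). Calsequestrin (Casq1), which stores that calcium, was 11.9-fold higher and parvalbumin (Pvalb), a calcium buffer, 10.2-fold. Triadin (Trdn), which anchors calsequestrin to the release channel, was 12.3-fold higher, and 16 of its 19 transcript clusters were called higher.

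Enzymes of muscle energy supply followed, with 12 of 24 members higher and none lower. Muscle creatine kinase (Ckm) had 10.26, 10.91 and 11.73 at week 8 and 6.96, 7.54 and 8.89 at week 3, a rise of 3.33 ± 0.42 on the log2 scale (adjusted p = 6.93e-07). Pgam2, the muscle phosphoglycerate mutase of glycolysis, was 8.36-fold higher, Ckmt2, the mitochondrial creatine kinase of sarcomeres, 5.81-fold, and Eno3, muscle enolase, 5.01-fold. The respiratory chain, which every cell type uses, had no member called among 50. Among the 21 myogenic regulators 5 were called higher. Klhl41, a kelch protein that stabilises nebulin, was 9.59-fold higher, Klhl31 4.58-fold, desmin (Des), the intermediate filament of muscle, 4.30-fold and Smyd1, a myosin chaperone, 2.58-fold. Smpx, a small muscle protein that was on no muscle list, was 9.72-fold higher. Myo18b is a case where the transcript clusters disagreed: the brightest had a log2 fold change of 0.18 ± 0.12 (adjusted p = 0.227), and 9 of its 20 clusters were called higher.

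The muscle genes did not follow age in 1 direction over the series. The mean log2 signal of the sarcomere list was 8.48 ± 0.67 at week 1, 6.70 ± 0.37 at week 2, 6.44 ± 0.56 at week 3, 8.03 ± 0.37 at week 6 and 8.10 ± 0.37 at week 8 (SD, n = 6 arrays per week). Weeks 2 and 3 were thus low and lay within their SDs of each other, as did weeks 1, 6 and 8. Within week 3 the array means ran from 5.78 to 7.41, and within week 8 from 7.57 to 8.57. Muscle fibres attached to the sclera and muscle-type transcripts of scleral cells cannot be told apart in these samples.

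**Figure D3:**
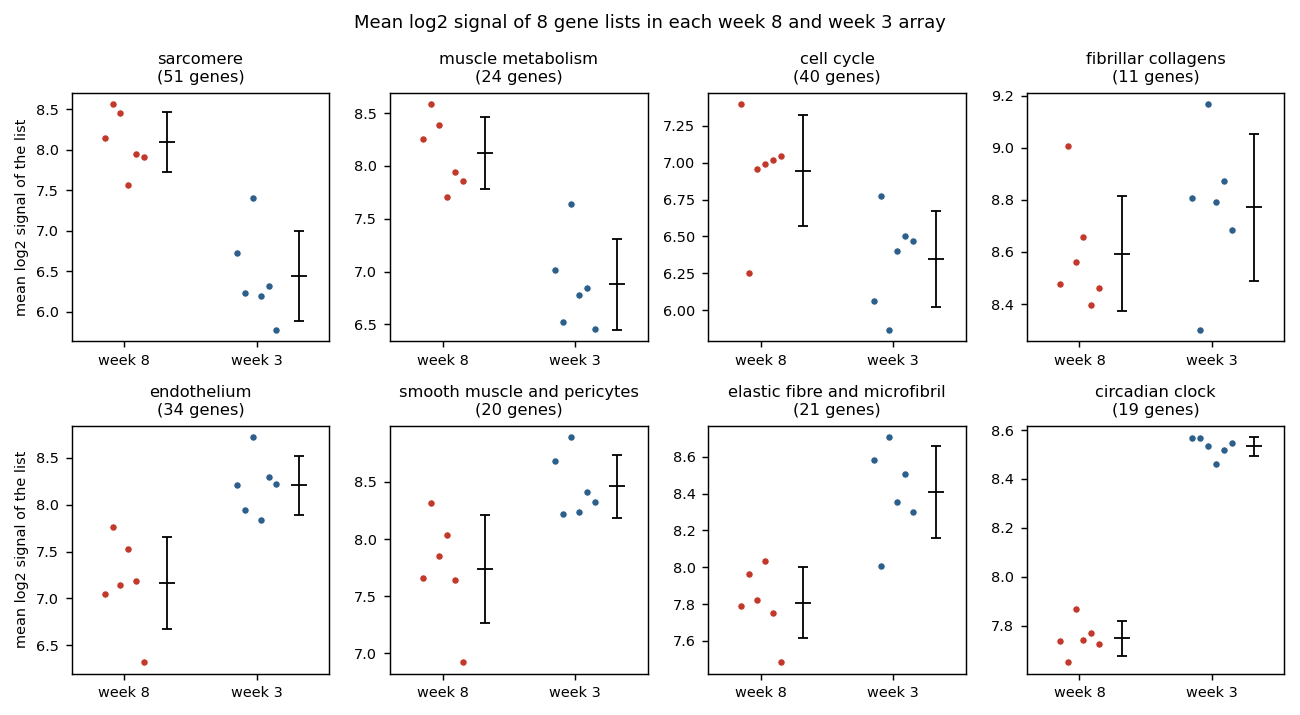
Each panel gives the mean log2 signal over the members of 1 gene list in the 6 week 8 arrays (red, left) and the 6 week 3 arrays (blue, right), with the mean and SD in black. The ages do not overlap for the sarcomere, muscle metabolism, endothelium or circadian clock lists. They overlap for the other panels, among them fibrillar collagens, where week 8 spans 8.40 to 9.01 and week 3 spans 8.30 to 9.17.

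Of the 163 genes called higher, 55 were on 1 of the 4 muscle lists and 96 were on no list. The rises outside the muscle lists that are named here were smaller than the largest muscle rises. Interleukin 1 alpha (Il1a), an alarm cytokine stored in epithelial cells, had 4.77, 6.99 and 7.56 at week 8 and 3.75, 4.61 and 4.85 at week 3, with the lowest week 8 value, in replicate 2, inside the week 3 range. It was 4.61-fold higher (2.21 ± 0.36, adjusted p = 2.45e-05). Lactoferrin (Ltf), an iron-binding protein of tears and neutrophils, was 3.72-fold higher, and Sfrp4, a secreted inhibitor of Wnt ligands, 3.66-fold. Dermatopontin (Dpt), a matrix protein that binds decorin and helps collagen fibrils form, had 7.99, 8.24 and 8.52 at week 8 and 6.08, 6.86 and 7.29 at week 3. Its arrays did not overlap, and it was 2.72-fold higher (1.44 ± 0.38, adjusted p = 0.00338). Car3, a carbonic anhydrase of muscle and fat, was 3.39-fold higher, Aqp7, a glycerol channel of fat cells, 2.30-fold, and Itgb6, an epithelial integrin chain, 2.02-fold. The call of Itgb6 was lost without week 8 replicate 1, 3 or 5 or week 3 replicate 4 or 6.

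Cell cycle genes leaned upward, mostly under the 2-fold threshold. Of 40 members, 5 were called higher and none lower, 38 had positive log2 fold changes, 31 had an adjusted p of at most 0.05, and the median of the list was 0.70. Over all genes, 41.6% had an adjusted p of at most 0.05, 16.4% in the upward direction. Top2a, the topoisomerase of dividing cells, had 6.80, 8.20 and 8.70 at week 8 and 5.96, 6.99 and 7.78 at week 3, which overlapped (2.26-fold higher, adjusted p = 0.00147). Cenpe, a kinetochore motor, was 2.23-fold higher, anillin (Anln), a scaffold of the cleavage furrow, 2.09-fold and Kif20a, a motor of cytokinesis, 2.08-fold. None of the 29 DNA replication genes was called, and their median was -0.05.

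The count of cell cycle genes depended on single arrays. It was 16 with the spread of each array as a covariate, 1 without week 3 replicate 3, 2 without week 3 replicate 1 or week 8 replicate 1, 9 without week 3 replicate 2 and 13 without week 8 replicate 2. Anln and Kif20a were not called without week 8 replicate 1 or week 3 replicate 1 or 3, and Top2a without week 3 replicate 3. The mean of the list was 6.25 in the lowest week 8 array, replicate 2, and 6.94 ± 0.38 over the age, against 5.87 in the lowest week 3 array, replicate 3, and 6.35 ± 0.33 over that age (SD, n = 6). Surface epithelium markers stood lowest in the same arrays, at 10.36 in week 8 replicate 2 and 9.07 in week 3 replicate 3. Their part in the cell cycle values was not tested.

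The largest fall was that of Angptl7, an angiopoietin-like secreted protein abundant in the cornea and the outflow tissue of the eye. Its log2 signals were 6.38, 7.21 and 7.73 at week 8 and 9.57, 10.56 and 11.20 at week 3, without overlap. It was 10.5-fold lower (-3.40 ± 0.30, adjusted p = 3.14e-09), while at weeks 1, 2 and 6 it averaged 8.39 ± 0.59, 7.90 ± 0.57 and 8.52 ± 0.54 (SD, n = 6). Acer2, a Golgi ceramidase, was 5.47-fold lower, with 1 of its 2 transcript clusters called. Cytl1, a secreted protein of cartilage and vessels, was 4.24-fold lower.

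Some of the genes that glucocorticoid hormones are known to induce fell sharply. The list of 28 measured genes was drawn up after the values had been seen, so its counts are a description and no test of the list. Of these 28, 11 were called lower and none higher. Fkbp5, a co-chaperone that limits the glucocorticoid receptor and is among its best-known targets, had 6.32, 6.58 and 6.78 at week 8 and 9.28, 9.42 and 9.69 at week 3. It was 7.34-fold lower (-2.88 ± 0.12, adjusted p = 2.41e-16), and the gap between the ages was larger than the spread within either. Zbtb16, a zinc finger repressor, had 6.81, 7.02 and 7.39 at week 8 and 9.33, 9.71 and 10.48 at week 3, which was 6.67-fold lower (-2.74 ± 0.15, adjusted p = 2.88e-13). Tsc22d3, the glucocorticoid-induced leucine zipper, had 6.09, 6.34 and 6.55 at week 8 and 8.20, 8.47 and 9.12 at week 3. It was 4.70-fold lower (-2.23 ± 0.14, adjusted p = 3.61e-12).

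Other members were lower by less. Ddit4, an inhibitor of mTOR signalling, was 4.01-fold lower, Hif3a 3.66-fold, Klf9, a transcription factor, 2.96-fold, metallothionein 2 (Mt2), which binds zinc, 2.73-fold, Nfkbia, the inhibitor of NF-kappaB, 2.55-fold, and the kinase Sgk1 2.28-fold. The call of Sgk1 was lost with array spread as a covariate. The 6 genes just named each had all week 8 arrays below all week 3 arrays, which held for 20 of the 28 genes on the list and for 15.1% of all genes. Of the rest, 1 gene, G6pc, had all week 8 arrays above. In all, 6 of the 28 had positive log2 fold changes, none of them called. They were Lcn2 (1.89-fold higher, limma adjusted p = 0.00397), Pdk4 (1.80-fold, 0.0538), Lpin1 (1.51-fold, 0.00011), G6pc (1.30-fold, 0.00207), Tat (1.07-fold, 0.383) and Pck1 (1.06-fold, 0.72). Mean levels of the list were 7.14 ± 0.09, 7.18 ± 0.12, 8.18 ± 0.13, 7.21 ± 0.10 and 7.26 ± 0.05 at weeks 1, 2, 3, 6 and 8 (SD, n = 6), so that week 3 stood alone and week 8 lay close to the other ages.

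The promoter of Sgk1 is shown because it was the only one among the 25 list members with a RefSeq promoter window that held the full palindrome of the glucocorticoid response element. The 250 bases before a start site were searched on both strands, and 3 of 32851 such windows, 0.00913%, held it. That share is of windows and cannot be set against a count of genes. Sgk1 has 6 such windows and the motif lies in 1, beginning 189 bases before that start (RefSeq, GRCm38.p6, chr10:21993640-21993889, plus strand, motif in capitals).
Sgk1: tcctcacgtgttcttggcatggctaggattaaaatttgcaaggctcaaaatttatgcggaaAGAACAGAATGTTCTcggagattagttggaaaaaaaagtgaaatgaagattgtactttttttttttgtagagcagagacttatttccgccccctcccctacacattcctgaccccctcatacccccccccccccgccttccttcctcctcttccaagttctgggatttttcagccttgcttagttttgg
A match of letters does not show that the receptor binds there.

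Circadian clock genes fell with them. In the molecular clock, CLOCK and its partner ARNTL drive genes that carry E-box elements, among them the Per genes, whose products then repress the pair, while Dbp and Tef are output factors. Of 19 measured clock genes 7 were called lower and none higher, 18 had an adjusted p of at most 0.05, and 14 had all week 8 arrays below those of week 3. Per1 had 6.58, 7.14 and 7.34 at week 8 and 9.30, 9.68 and 10.03 at week 3, a fall of 6.02-fold (-2.59 ± 0.16, adjusted p = 1.39e-12). Per1 is also on the glucocorticoid list. Per2 had 6.11, 6.35 and 6.73 at week 8 and 7.65, 8.11 and 8.25 at week 3, and was 3.15-fold lower (-1.66 ± 0.11, adjusted p = 3.02e-11). Dbp was 2.98-fold lower and Tef 2.75-fold lower, with adjusted p of 2.18e-09 and 2.53e-12.

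The activators had the opposite sign. Arntl had 7.23, 7.62 and 7.86 at week 8 and 6.27, 6.71 and 7.08 at week 3, without overlap (0.92 ± 0.17, adjusted p = 8.04e-05), and Clock had 0.58 ± 0.14 (adjusted p = 0.00174). Both stayed under the 2-fold threshold, and they were the only 2 of the 19 with positive log2 fold changes. Per3 (-1.36), Ciart (-1.21) and Nr1d2 (-1.01), repressors within or beside the same loop, were the other 3 called lower. Nr1d2, the closest to the threshold, fell short of it without week 8 replicate 1, 5 or 6 or week 3 replicate 1 or 3. It was also not called after quantile normalization, with array weights or with array spread as a covariate. The mean of the clock list was 7.65 to 7.87 in the week 8 arrays and 8.46 to 8.57 in the week 3 arrays. The sources used here do not give the time of day at which the eyes were taken, and its part in these values was not tested.

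**Figure D4:**
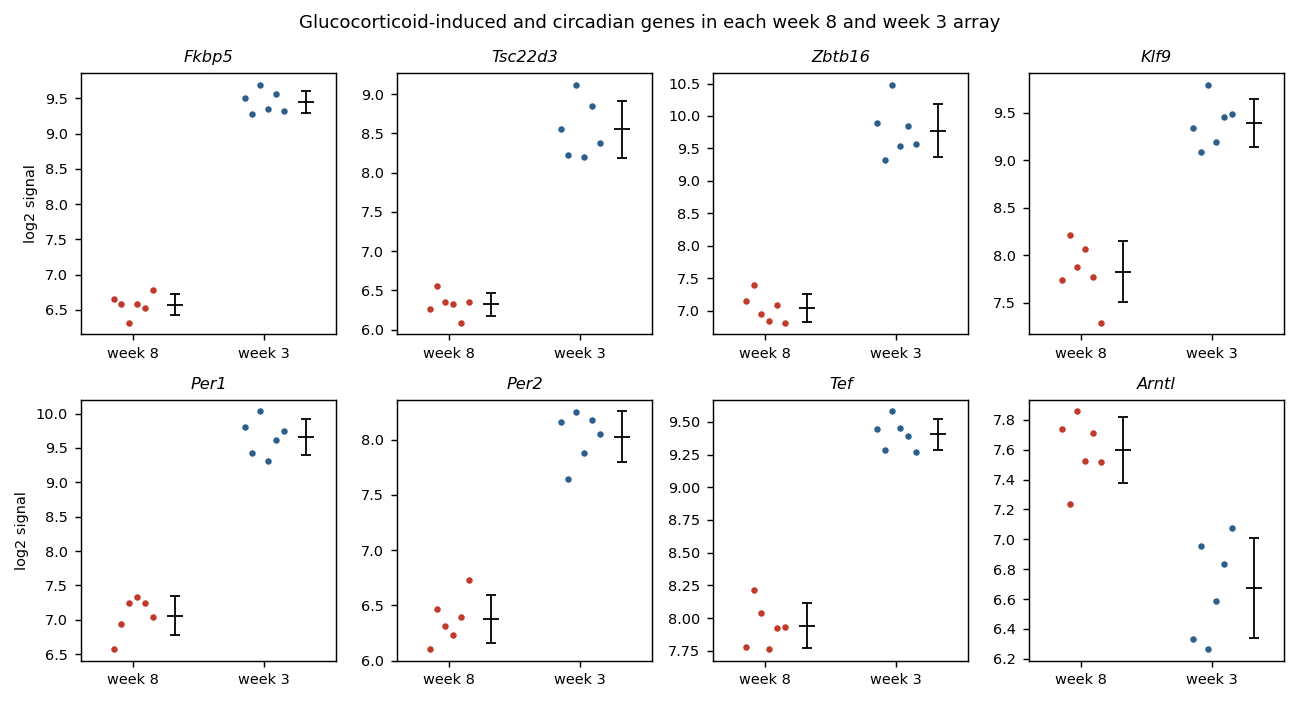
Log2 signal of 8 genes in the 6 week 8 arrays (red, left) and the 6 week 3 arrays (blue, right), with the mean and SD in black. Fkbp5, Tsc22d3, Zbtb16, Klf9, Per1, Per2 and Tef lie lower in every week 8 array than in any week 3 array, and Arntl, at 7.23 to 7.86 against 6.27 to 7.08, lies higher.

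Per1 and Ciart are shown for the E-box, CACGTG, to which CLOCK and ARNTL bind. It reads the same on both strands and was present in 1978 of 32851 windows, 6.02%. Of 16 clock genes with a window 5 held it, and 3 of these were called. These are counts of genes, some of which have several windows, and cannot be set against the share of windows. In Per1 it begins 166 bases before the start site (chr11:69098699-69098948, plus strand), and in Ciart 3 copies begin 116, 58 and 44 bases before it (chr3:95882259-95882478, minus strand, the last 30 bases before the start left out). Both are from RefSeq, GRCm38.p6, with each E-box in capitals.
Per1: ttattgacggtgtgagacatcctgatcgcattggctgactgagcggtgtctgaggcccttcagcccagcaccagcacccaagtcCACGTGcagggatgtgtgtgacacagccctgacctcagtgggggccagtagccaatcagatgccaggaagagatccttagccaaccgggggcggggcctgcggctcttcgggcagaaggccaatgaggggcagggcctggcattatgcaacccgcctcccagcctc
Ciart: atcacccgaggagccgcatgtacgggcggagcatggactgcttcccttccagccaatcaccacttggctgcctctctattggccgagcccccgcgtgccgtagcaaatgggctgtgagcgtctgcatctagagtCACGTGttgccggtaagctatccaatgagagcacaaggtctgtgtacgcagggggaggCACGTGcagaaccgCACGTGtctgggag

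Genes of the vessel wall were lower at week 8 in larger numbers than those of any other list. Of 34 endothelial genes 20 were called lower, none higher, 31 had negative log2 fold changes, and the median was -1.20. Gja4, a connexin of arteries, had 5.94, 6.55 and 7.33 at week 8 and 8.23, 8.81 and 9.58 at week 3. It was 4.46-fold lower (-2.16 ± 0.21, adjusted p = 1.58e-08), and its relative Gja5 was 4.06-fold lower. Claudin 5 (Cldn5), which seals endothelial tight junctions, had 6.54, 7.22 and 8.07 at week 8 and 8.91, 9.35 and 9.83 at week 3, a fall of 3.91-fold (-1.97 ± 0.22, adjusted p = 1.1e-07). Ramp2, a partner of the adrenomedullin receptor, was 3.83-fold lower. For these 4 genes the ages did not overlap.

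The markers that define endothelium gave a wider spread. Vwf, the clotting factor stored in endothelial cells, was 3.40-fold lower (adjusted p = 8.39e-05), Tek, the angiopoietin receptor, 2.77-fold (adjusted p = 0.000604) and Pecam1, a junctional adhesion molecule, 2.40-fold (adjusted p = 0.000928). Kdr, the main VEGF receptor, had -0.81 ± 0.33 (adjusted p = 0.0465) and the endothelial cadherin Cdh5 -0.70 ± 0.31 (adjusted p = 0.071), and neither was called. Week 8 replicate 6 was lowest for Vwf, at 6.57 against 8.14 to 9.07 in the other week 8 arrays. Without that array 17 endothelial genes were called in place of 20, and Pecam1 missed the fold threshold, as did Egfl7 of the same list. S1pr1, the sphingosine 1-phosphate receptor that stabilises vessels, was 4.06-fold lower, Klf2, a factor induced by flow, 2.28-fold, and Flt1, a decoy VEGF receptor, 2.63-fold. Of 18 genes of VEGF and angiopoietin signalling 3 were lower, among them Angptl7. Pgf, placental growth factor, was 2.79-fold lower, and the receptor Notch4 2.17-fold, a call lost without week 3 replicate 3.

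Egfl7, a secreted endothelial protein, carries the gene of miR-126a in an intron, and both were lower. Egfl7 was lower by 2.23-fold (-1.16 ± 0.28, adjusted p = 0.00171). The transcript cluster of Mir126a, named after its values were seen, had 3.32, 4.07 and 5.02 at week 8 and 4.79, 5.66 and 6.18 at week 3 (-1.34 ± 0.25, adjusted p = 0.000113), with overlap. The array reads the primary transcript as well, so host and miRNA cannot be told apart. The mature miRNA (RefSeq, GRCm38.p6, chr2:26591402-26591423, plus strand) is given with its seed, bases 2 to 8, in capitals.
miR-126a-3p: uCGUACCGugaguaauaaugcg

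Smooth muscle and pericytes surround the endothelium, and 6 of their 20 listed genes were lower. Smooth muscle actin (Acta2) had 7.85, 9.98 and 10.95 at week 8 and 11.75, 11.89 and 12.53 at week 3, without overlap and with a wider spread at week 8. It was 4.58-fold lower (-2.20 ± 0.37, adjusted p = 3.31e-05). Myl9, the regulatory light chain of smooth muscle and non-muscle myosin, was 4.52-fold lower, transgelin (Tagln) 3.78-fold, smooth muscle myosin (Myh11) 3.64-fold and Rgs5, a pericyte marker, 2.85-fold. The 1 member called higher was desmin, which striated muscle shares. Contractile genes of smooth muscle and of striated muscle thus lay on opposite sides, Acta2 at -2.20 and Acta1 at 2.95 on the log2 scale.

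Promoters of 1 gene from each side are shown because both hold a CArG box, the site of serum response factor. It was searched by name on both strands and was present in 482 of 32851 windows, 1.47%. Of 40 sarcomere genes with a window 6 held it in at least 1 of their windows, 5 of them called higher, and of 14 on the smooth muscle list none did. These too are counts of genes, which cannot be set against the share of windows. Myl9 is on neither list. The box begins 161 bases before the start of Myl9 (chr2:156775214-156775463, plus strand) and 73 bases before that of Acta1 (chr8:123894776-123895025, minus strand), in capitals (RefSeq, GRCm38.p6).
Myl9: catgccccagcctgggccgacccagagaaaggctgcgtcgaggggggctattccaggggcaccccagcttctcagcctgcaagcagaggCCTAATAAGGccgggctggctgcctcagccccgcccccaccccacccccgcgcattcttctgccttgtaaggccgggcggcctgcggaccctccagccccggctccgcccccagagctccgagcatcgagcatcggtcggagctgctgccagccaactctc
Acta1: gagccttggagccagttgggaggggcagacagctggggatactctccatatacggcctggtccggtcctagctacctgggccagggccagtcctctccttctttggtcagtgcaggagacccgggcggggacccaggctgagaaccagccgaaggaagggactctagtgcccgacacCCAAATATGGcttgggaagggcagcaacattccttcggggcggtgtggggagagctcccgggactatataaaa

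Of 21 genes of the elastic fibre and its microfibrils 4 were called lower and none higher, with a median of -0.54. The basement membrane list had a median of -0.54 too, and the difference between matrix lists was not tested. Elastin (Eln) had 8.39, 8.62 and 9.01 at week 8 and 10.59, 11.02 and 11.65 at week 3, without overlap. It was 5.26-fold lower (-2.39 ± 0.24, adjusted p = 2.72e-08), and its means at weeks 1, 2 and 6 were 10.18 ± 0.43, 10.04 ± 0.67 and 7.95 ± 0.41 (SD, n = 6). Fibulin 5 (Fbln5), which assembles elastin onto microfibrils, was 3.10-fold lower, Mmrn2, an endothelial glycoprotein, 2.52-fold, and the microfibril protein Mfap2 2.34-fold. Fbn2, a fibrillin of developing microfibrils, had -0.75 ± 0.23 (adjusted p = 0.00955) and missed the fold threshold. Lysyl oxidase (Lox), which cross-links elastin and collagen, was 2.21-fold lower and was the only 1 of 30 collagen processing genes called. With array spread as a covariate Lox was not called.

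The fibrillar collagens, the bulk of scleral matrix, had no member called among 11. Col1a1 had 11.97, 12.30 and 12.82 at week 8 and 12.22, 12.85 and 13.08 at week 3 (-0.49 ± 0.19, adjusted p = 0.0355). Col1a2 had -0.49 ± 0.23 (adjusted p = 0.0789) and Col3a1 -0.31 ± 0.26 (adjusted p = 0.348). The ages overlapped for all 11, and the median of the list was -0.15. The small leucine-rich proteoglycans, which bind collagen fibrils, likewise had none of 17 called. Biglycan (Bgn) had -0.74 ± 0.29 (adjusted p = 0.04), Prelp -0.75 ± 0.25 (adjusted p = 0.0157), lumican (Lum) -0.67 ± 0.30 (adjusted p = 0.0727) and decorin (Dcn) -0.40 ± 0.25 (adjusted p = 0.198).

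Other matrix proteins were called lower one by one. Timp3, an inhibitor of metalloproteinases, had 8.10, 10.04 and 10.42 at week 8 and 11.40, 11.89 and 12.21 at week 3, and was 4.16-fold lower (-2.06 ± 0.31, adjusted p = 7.65e-06). Matrix Gla protein (Mgp), which keeps soft tissue from calcifying, was 4.09-fold lower. Of 22 matricellular genes 3 were lower, namely vitronectin (Vtn) 3.31-fold, Ccn2, also known as Ctgf, a growth factor-induced matrix protein, 3.09-fold, and Thbs4 2.01-fold. Of 27 basement membrane genes 3 were lower, the laminin chains Lamc3 (2.34-fold) and Lama5 (2.12-fold) and nephronectin (Npnt, 2.15-fold). Col8a1, a collagen of vessel walls and of the basal layer of the corneal endothelium, was 2.54-fold lower, versican (Vcan) 2.16-fold and the hyaluronan link protein Hapln1 2.02-fold. The calls of Thbs4, Vcan and Hapln1 were each lost when a single array was left out: Thbs4 without week 8 replicate 5 or 6 or week 3 replicate 3 or 5, Vcan without week 3 replicate 1, and Hapln1 without week 8 replicate 1 or 3 or week 3 replicate 3 or 6.

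Growth factor lists differed in their counts. Of 23 ligands and receptors of the FGF and EGF families none was called, with 11 positive and 12 negative log2 fold changes, and of 26 Wnt ligands and inhibitors 1 was called higher and 1 lower. Of 31 genes of TGF-beta and BMP signalling 6 were called lower and none higher, and 29 had negative log2 fold changes. Endoglin (Eng) and Acvrl1, receptors of this family in endothelium, were 3.77-fold and 2.47-fold lower. Tgfb2 had 6.22, 6.64 and 6.93 at week 8 and 7.52, 7.72 and 8.20 at week 3, without overlap (2.27-fold lower, -1.18 ± 0.17, adjusted p = 4.69e-06), and Bmp6 was 2.23-fold lower. Tgfb1 had 8.11, 8.20 and 8.41 at week 8 and 8.53, 8.73 and 9.13 at week 3, also without overlap, but its change of -0.55 ± 0.10 (adjusted p = 0.000133) was under 2-fold. With quantile normalization 3 members of this list and 1 of the basement membrane list were called.

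In the insulin-like growth factor system 5 of 20 genes were called lower. Igf2, the fetal and early postnatal growth factor, had 7.37, 7.97 and 8.49 at week 8 and 8.63, 9.10 and 9.47 at week 3, a fall of 2.15-fold (-1.10 ± 0.26, adjusted p = 0.00099). Of the binding proteins, Igfbp3 was 2.69-fold lower, and Igfbp4 and Igfbp7 were 2.20-fold lower each. Igf2bp1, a fetal RNA-binding protein that carries the Igf2 message, had 5.71, 5.98 and 6.12 at week 8 and 6.91, 7.08 and 7.20 at week 3 (2.16-fold lower, adjusted p = 3.06e-08). Without week 8 replicate 6, or with array spread as a covariate, 2 members were called in place of 5. The calls lost without that array were Igf2, Igfbp4 and Igfbp7, and Igfbp4 was also lost without week 3 replicate 3. Among other imprinted growth genes, Mest was 2.57-fold lower and Ndn 2.01-fold, 2 of 17. Ndn was no longer called without week 8 replicate 1, 2, 4 or 6 or week 3 replicate 1 or 6.

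Genes of neighbouring ocular tissue were called lower in part. Of 39 phototransduction genes 5 were lower, with Guca1a, an activator of photoreceptor guanylate cyclase, 2.69-fold, the cone opsin Opn1mw 2.62-fold, Gnb5 2.35-fold and Crx, a photoreceptor transcription factor, 2.19-fold. The rod markers themselves had a median of -0.10 and none was called, and week 8 replicate 2 stood at 7.60 for Crx against 5.60 to 6.34 in the other week 8 arrays. Of 37 genes of retinal neurons 3 were lower. Of 14 Mueller glia genes 3 were lower, namely Gfap (2.79-fold), Slc1a3 (2.28-fold) and Vim (2.02-fold), of which vimentin is made by fibroblasts too. Of 24 genes of melanosomes and melanocytes 4 were lower, with Oca2 2.50-fold, Gpr143 2.42-fold, Pmel 2.36-fold and tyrosinase (Tyr) 2.16-fold. Mertk, a phagocytic receptor of the retinal pigment epithelium and of macrophages, was 3.57-fold lower and was the only 1 called of 18 genes on that list. With array spread as a covariate the phototransduction count was 2, the Mueller glia count 0 and the melanosome count 1. Several of the named calls were lost when a single array was left out. Crx was not called without week 8 replicate 3, 4, 5 or 6 or week 3 replicate 2, 5 or 6, nor after quantile normalization or with the covariate. Gfap was not called without week 8 replicate 1, 3 or 4 or week 3 replicate 2, 4 or 6, Vim without week 8 replicate 1, 5 or 6 or week 3 replicate 3 or 6, and Slc1a3 without week 3 replicate 6. Tyr was not called without week 8 replicate 2 or 6 or week 3 replicate 1, and Pmel without week 8 replicate 6. The counts moved as well. Phototransduction had 3 without week 3 replicate 2 or 6, Mueller glia 1 without week 8 replicate 1 and 0 without week 3 replicate 6, melanosomes 2 without week 8 replicate 6, and retinal neurons 6 without week 8 replicate 2 and 5 without week 3 replicate 1. Of 18 genes of myelin and Schwann cells only 1 was called, Pmp22, a protein of compact myelin, which was 2.91-fold lower. On that list 13 log2 fold changes were negative and 5 positive. Mbp, another myelin protein, had -0.75 ± 0.27 (adjusted p = 0.0237) and was not called.

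Several more lists had no member called. Over all genes 2.43% were called, so lists of this size would hold few calls or none. The same holds for the lists without a call named above. These were keratins and cornified epithelium (48 genes), macrophages and monocytes (32), class II antigen presentation (15), integrins (24), ribosomal proteins (24) and lens genes (22). The integrin list did not hold Itgb6, which was called higher. In the order given, 10, 15, 8, 10, 15 and 2 members of these lists had an adjusted p of at most 0.05, against 41.6% of all genes. Of the 10 common reference genes 7 had an adjusted p of at most 0.05, against 41.6% of all genes, and the median of the list was -0.14. Actb had -0.17 ± 0.08 (adjusted p = 0.0795) and Hprt -0.26 ± 0.14 (adjusted p = 0.117). Krt12 had 0.67 ± 0.63 (adjusted p = 0.402) and Krt5, the keratin of basal epithelial cells, 0.13 ± 0.24 (adjusted p = 0.694), both with a change of sign when week 3 replicate 3 was left out.

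**Figure D5:**
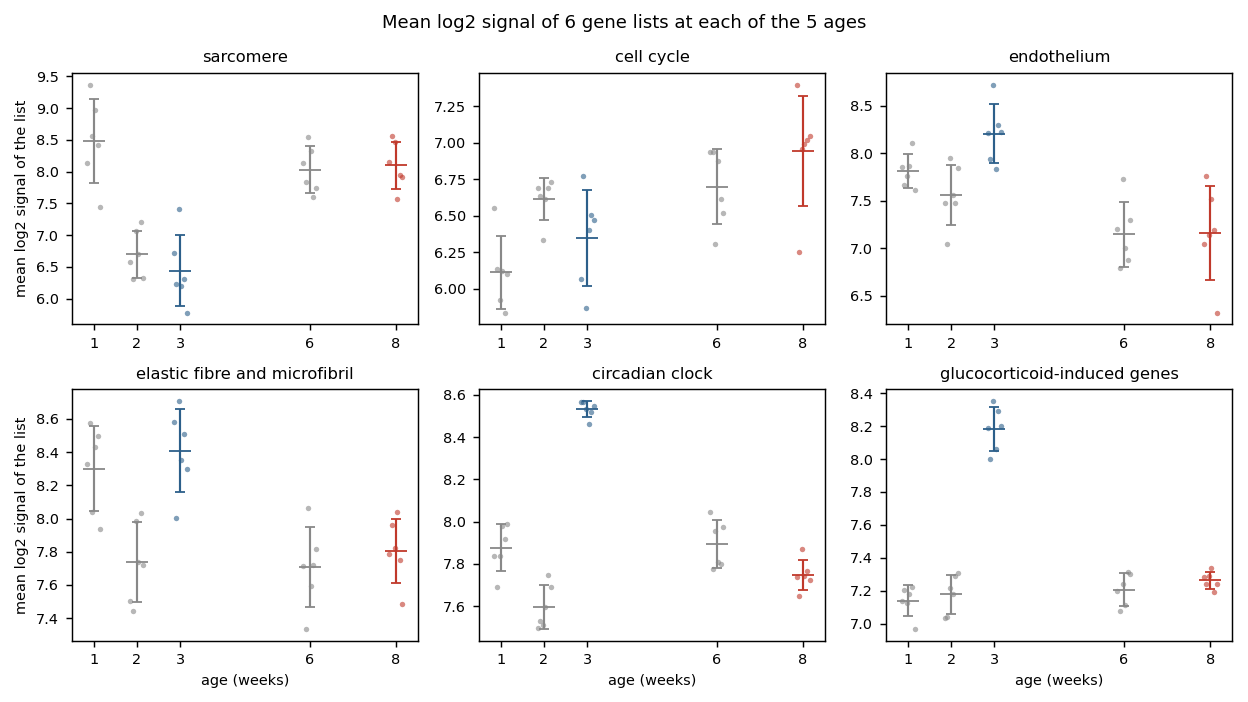
Mean log2 signal of 6 gene lists in each array at weeks 1, 2, 3, 6 and 8, with week 3 in blue, week 8 in red, bars for the mean and SD of the 6 arrays and the age in weeks on the horizontal axis. The circadian and glucocorticoid lists are highest at week 3, with means of 8.53 and 8.18, while the sarcomere list stands at 6.44 there and the endothelial list stands at 7.15 at week 6 and 7.16 at week 8.

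Genes of the sex chromosomes were looked at after their values were seen. Xist, the RNA that coats the inactive X chromosome, had 10.05, 10.25 and 10.48 at week 8 and 12.57, 12.68 and 12.94 at week 3, without overlap. Its adjusted p was 0.105 in the fit over all 30 arrays and 2.34e-09 in a fit of the 2 ages alone (limma). Xist varied widely at the other ages, around 8.07 ± 3.36 at week 1, 10.40 ± 2.77 at week 2 and 4.53 ± 2.53 at week 6 (SD, n = 6). The Y-linked genes lay low at both ages, Eif2s3y at 2.41 to 2.77 at week 8 and 0.59 to 0.81 at week 3, and Uty at 2.68 to 3.01 at week 8 and 1.12 to 1.34 at week 3. The lowest signal of any transcript cluster on an array was 1.28 to 1.66 at week 8 and 0.59 to 0.81 at week 3. Eif2s3y thus stood at or near that floor in the week 3 arrays, and the floor itself differed between the ages. Kdm5d lay above the floor, at 3.91 ± 0.09 at week 8 and 3.38 ± 0.07 at week 3 (SD, n = 6), without overlap. Its adjusted p was 0.454 in the fit over all 30 arrays and 5.41e-05 in the fit of the 2 ages alone (limma). No conclusion on the sex of the mice is drawn from these genes. The sources used here give neither the sex of the mice nor the scan date of each array, and the part of either in the results was not tested.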

How the data were processed

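Labelled RNA of 1 sclera per mouse was hybridised to Mouse Gene 1.0 ST arrays. The authors deposited 1 log2 signal per transcript cluster and array. Robust multiarray averaging and removal of a scan date batch in Partek stand in the methods, whereas GCRMA stands in the submitters' notes. Which of them made the values, and whether the batch had been removed, is not stated. Some adjustment across arrays had been made, since week 2 replicate 4 equalled the week 2 mean, at 10.81 for Acta2 and 12.23 for Col1a1. Which step left this was not tested. The values were used as deposited. Signals are relative, without counts, so the number of arrays limits the precision.

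All 35556 transcript clusters of the 30 arrays entered 1 fit in limma 3.58.1 (R 4.3.3, 1 mean per week, moderated variances, SEs from this fit), and week 8 minus week 3 was adjusted by Benjamini and Hochberg. The code was tested on simulated arrays with planted changes. Of 200 planted at a log2 change of 1, which lies at the fold threshold, 46% were called. Of 200 planted at 1.5, 99% were called.

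Probe names came from the platform annotation, and 21698 of the 21789 single-symbol clusters had an Entrez ID in the RefSeq table. The 59 gene lists hold 1602 entries, of which 1464 were measured, and members not matched were not analysed here. Named genes were the 15 largest rises and falls among called genes without overlap of arrays (predicted genes and small RNAs left out), up to 4 called members per list and direction, genes the study names, and cell type markers. Members and lists were chosen with earlier results of these data known. Alternatives were median centring, quantile normalization, array weights, the 2 ages alone, a replicate block, unmoderated contrasts, clusters above the median signal, adjustment over single-symbol clusters, no fold threshold, array spread (the interquartile range) as covariate, and each array left out.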

Additional observations from a re-analysis of the deposited data

Results flagged for a closer look

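A value was looked at again where 1 array of an age lay apart from the other 5 by more than Dixon's critical share of the whole range. Of 322 sets of 6 arrays screened, 25 did, 7.76%, where chance gives about 1 in 20. Of these, 9 fell on week 8 replicate 2 and 10 on week 8 replicate 6.

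Week 8 replicate 2 was low for Il1a (4.77, the others 6.78 to 7.56), Top2a (6.80, the others 8.08 to 8.70), Anln (6.50), Clock (8.08), Krt12 (11.56) and Krt5 (12.21). It was high for Aqp7 (6.81), Crx (7.60) and the mean of the retinal neuron list (6.57, the others 6.03 to 6.16).

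Week 8 replicate 6 was low for Sfrp4 (7.58), Timp3 (8.10, the others 9.66 to 10.42), Ramp2 (6.63), Vwf (6.57), Fbln5 (6.78), Oca2 (6.42), Col8a1 (6.07), Dcn (10.54), Lum (6.45) and the mean of the fibroblast list (7.01, the others 7.39 to 7.60).

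At week 3, replicate 3 was low for Krt12 (8.36, the others 12.65 to 13.31) and Krt5 (11.53) and high for Cytl1 (10.13). Replicate 2 was high for Cenpe (5.28) and low for Col1a1 (12.22), and replicate 1 was high for Myh11 (11.20).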

How the results depend on the processing

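Of 114 named genes called, 84 kept their call and direction under every alternative that tested them. None of the 114 changed sign. Calls lost were 11 under quantile normalization, 5 with array weights and 20 with array spread as covariate, and 2 to 12 when a single array was left out. Quantile normalization lost Nr1d2, Bmp6, Igf2, Notch4, Thbs4, Npnt, Lama5, Crx, Vim, Ndn and Egfl7. Array weights lost Nr1d2, Thbs4, Vim, Tyr and Ndn. The covariate lost Nr1d2, Sgk1, Lox, Igfbp4, Igfbp7, Igf2, Thbs4, Npnt, Gnb5 and Crx. It also lost Gfap, Slc1a3, Vim, Oca2, Pmel, Tyr, Mest, Ndn, Col8a1 and Vcan. The array weights gave week 2 replicate 4 a weight of 139, against 0.22 to 1.77 for the other arrays. The fit of the 2 ages alone, which leaves that array out, called 584 single-symbol transcript clusters. The number of single-symbol transcript clusters called ranged from 503, without week 8 replicate 6, to 668, without week 8 replicate 2, against 571 in all. Those higher ranged from 209 to 255 and those lower from 285 to 413. Above the median signal, where fewer clusters were tested, 139 were called higher and 308 lower, against 223 and 348 in the main fit. The share called higher was thus 31.1% there, so the calls lost were more often higher than lower. The cause was not tested. Without a fold threshold 9096 were called, 3589 higher and 5507 lower. The share called higher was 39.1% as deposited, 46.8% after quantile normalization and 51.2% with the covariate, and the cause was not tested. With the covariate the uncalled changes of Myo18b (-0.12), Col3a1 (0.10), Tnnt1 (-0.0048) and Hprt (0.081) changed sign, as did Krt12 and Krt5 without week 3 replicate 3. With single arrays left out, Krt12 ranged from -0.085 to 0.93 and Krt5 from -0.10 to 0.25. Samples of the same number shared only that number, with correlations of deviations from -0.412 to 0.058, and 572 were called with a replicate block.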
